A study of Mus musculus with 18 samples.

Results

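The redox enzyme genes of mouse chromosome 13 described here are 5 aldo-keto reductase genes (Akr1c12, Akr1c13, Akr1c14, Akr1c18 and Akr1e1), the glutaredoxin gene Glrx and the quinone reductase gene Nqo2. They were listed because Akr1c14, Glrx and Nqo2 were high in fibroblasts with an extra chromosome 13, so their values in those cells chose the list and are given as a description with no test. They are 7 of 12394 genes with a probe set of their own on the array, and 9 probe sets read them. Of these, 8 match 1 member and 1 matches both Akr1c12 and Akr1c13. The filter for testing, an average of 4 or more on the log2 scale across the 18 arrays, was passed by 4 of the 7 members and by 7382 genes in all. Akr1c14 passed it only through the trisomy 13 arrays, since its mean over the other 14 arrays was 3.49.

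The study measured messenger RNA in embryo fibroblasts, connective tissue cells grown out of mouse embryos, with 1 Affymetrix array per culture. The 9 control cultures, titled Wt, have a normal set of chromosomes. The trisomic cultures carry 3 copies of a chromosome: chromosome 1 in 1 culture (Ts1), chromosome 13 in 4 (Ts13), chromosome 16 in 3 (Ts16) and chromosome 19 in 1 (Ts19). All were kept for 2 passages in DMEM with calf serum, and RNA was taken with Trizol. For strain, embryo age, sex and the origin of the extra chromosome, and for whether cultures share an embryo, the sources used here give nothing. The p-values therefore measure only the spread between these cultures, which may be technical. Each culture's title has a first number that trisomic and control cultures share, with 7 such numbers in all. The sources used here do not say what it stands for.

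Aldo-keto reductases use NADPH to reduce aldehydes and ketones. In the mouse the Akr1c genes lie in a cluster and encode close relatives that act on steroid hormones, prostaglandins and foreign carbonyl compounds. Glutaredoxin uses glutathione to take glutathione off protein cysteines and to reduce protein disulfides, and NQO2 is a flavoprotein that reduces quinones with a nicotinamide riboside cofactor in place of NADPH. Several genes of these families are known as targets of the transcription factor Nrf2, which binds antioxidant response elements when cells meet electrophiles.

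The members lie at 3 places on chromosome 13 (RefSeq annotation, GRCm38.p6). Akr1c14 (bases 4048991 to 4090560), Akr1c18 (4132615 to 4150646), Akr1c13 (4191168 to 4205604), Akr1c12 (4268172 to 4279399) and Akr1e1 (4591123 to 4609164) form the cluster near one end. Nqo2 (33964655 to 33988465) and Glrx (75839885 to 75850151) lie far from it and from each other. RefSeq promoter windows, from 250 bases before to 50 after an annotated start, were matched by symbol for all 7 members, with 9 windows in all. Those of the members that were high in trisomy 13 are printed 5′ to 3′ on the gene's strand. The window of Akr1c14 starts inside the annotated span of the gene. Capitals mark a match to TGANTCA, a string that includes the AP-1 site TGACTCA but is looser than it. For Nqo2 the first of 2 annotated starts is shown.
Akr1c14 (chr13:4059341-4059640, plus strand): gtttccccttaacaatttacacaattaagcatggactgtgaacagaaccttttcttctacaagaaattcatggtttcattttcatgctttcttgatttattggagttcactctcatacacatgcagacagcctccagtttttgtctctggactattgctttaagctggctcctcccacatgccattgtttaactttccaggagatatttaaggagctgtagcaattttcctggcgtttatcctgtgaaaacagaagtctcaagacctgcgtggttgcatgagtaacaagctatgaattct
Glrx (chr13:75839635-75839934, plus strand): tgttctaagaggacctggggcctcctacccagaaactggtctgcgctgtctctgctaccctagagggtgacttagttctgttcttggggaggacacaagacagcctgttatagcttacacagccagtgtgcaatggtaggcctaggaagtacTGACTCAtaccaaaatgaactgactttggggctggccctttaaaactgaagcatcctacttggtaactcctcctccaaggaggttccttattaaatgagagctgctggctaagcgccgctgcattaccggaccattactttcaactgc
Nqo2 (chr13:33964409-33964708, plus strand): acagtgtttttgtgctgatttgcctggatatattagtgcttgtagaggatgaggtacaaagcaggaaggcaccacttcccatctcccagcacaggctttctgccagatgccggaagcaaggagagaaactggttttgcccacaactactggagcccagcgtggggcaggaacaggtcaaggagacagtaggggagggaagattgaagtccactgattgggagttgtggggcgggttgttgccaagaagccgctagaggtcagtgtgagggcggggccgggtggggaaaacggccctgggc

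The antioxidant response element core was searched as TGACNNNGC, or GCNNNGTCA on the other strand. It was found in 0 of the 9 member windows, and 12.39% of all 32851 RefSeq windows of this length hold it. TGANTCA, which reads the same on both strands and can share bases with the antioxidant element, was searched after the data had been seen. It occurred in 3 of the 9 windows, where 7.81% of all windows hold it. Both Glrx windows, which overlap but for 1 base, hold the copy printed above, whose first base lies at position -98 from the start. The other copy lies in the second Nqo2 window and reads TGAATCA, which matches the looser string and not TGACTCA. GC content was 39.7% in the Akr1c14 window and 56.0% in that of Nqo2, against a mean of 53.8% over all windows. These are matches of letters, and no binding was measured.

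Akr1c12 and Akr1c13 are shown side by side because one probe set reads both, so that their transcripts cannot be told apart there. Their promoter windows were identical at 284 of 304 aligned positions (93.4%), whereas the other pairs of members ranged from 46.8% to 55.6%. Capitals mark the bases at the 20 positions that differ or have no partner in the other window.
Akr1c12 (chr13:4279350-4279649, minus strand): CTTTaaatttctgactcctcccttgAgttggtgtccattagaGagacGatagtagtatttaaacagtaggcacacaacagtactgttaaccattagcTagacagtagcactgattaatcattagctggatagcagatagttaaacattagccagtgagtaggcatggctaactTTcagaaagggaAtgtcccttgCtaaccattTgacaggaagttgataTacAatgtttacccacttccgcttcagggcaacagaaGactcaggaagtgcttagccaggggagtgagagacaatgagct
Akr1c13 (chr13:4190937-4191236, plus strand): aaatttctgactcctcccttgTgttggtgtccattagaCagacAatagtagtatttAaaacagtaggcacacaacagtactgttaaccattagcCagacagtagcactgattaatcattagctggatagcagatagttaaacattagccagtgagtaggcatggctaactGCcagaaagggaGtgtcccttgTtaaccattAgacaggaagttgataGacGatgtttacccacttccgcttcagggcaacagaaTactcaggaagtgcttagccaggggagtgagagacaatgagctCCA

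All values are log2 expression values as deposited, computed by the authors with GCRMA, and levels are set against each other only within a probe set. A log2 difference of 1 is a doubling. Arrays give no counting depth, and their number limits the precision. The 10 fibroblast markers fixed with the design were all well above the filter, with list means of 12.88 to 14.14 per array. All 7 liver, 3 erythroid and 6 endothelial markers on the array were below 4 on every array, and 2 of 6 epithelial markers passed the filter. Among 14 macrophage markers the list mean was 5.87 on trisomy 13 replicate 4 and 4.91 on control replicate 8, against 2.64 to 3.18 on the other 16 arrays. RNA quality also differed. The Gapdh control probe sets gave a 3′ minus 5′ difference of 6.94 on trisomy 13 replicate 3, 5.57 on trisomy 13 replicate 4 and 6.55 on trisomy 16 replicate 1, and between -0.20 and 1.41 on the other 15 arrays. The first 3 are called 3′-biased arrays here. Differences without them are given for Akr1c14, Akr1e1, Glrx and Nqo2, and for genes that passed a test. They are also given for the other tested genes named beside the members or from their pathways. They are not given for the other Akr1c genes. Genes named only for a profile like that of a member, or only in a caption, also lack them.

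In trisomy 13, 3 of the 7 members (Akr1c14, Glrx and Nqo2) had every array above every control. Of all genes tested, 1.77% did so (131 of 7382), and of the tested genes of chromosome 13, 19.1% (53 of 277). The list was chosen on this contrast, so nothing is read from the count. Akr1e1 overlapped with the controls, and Akr1c12, Akr1c13 and Akr1c18 stayed below or near the filter level.

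**Figure D1:**
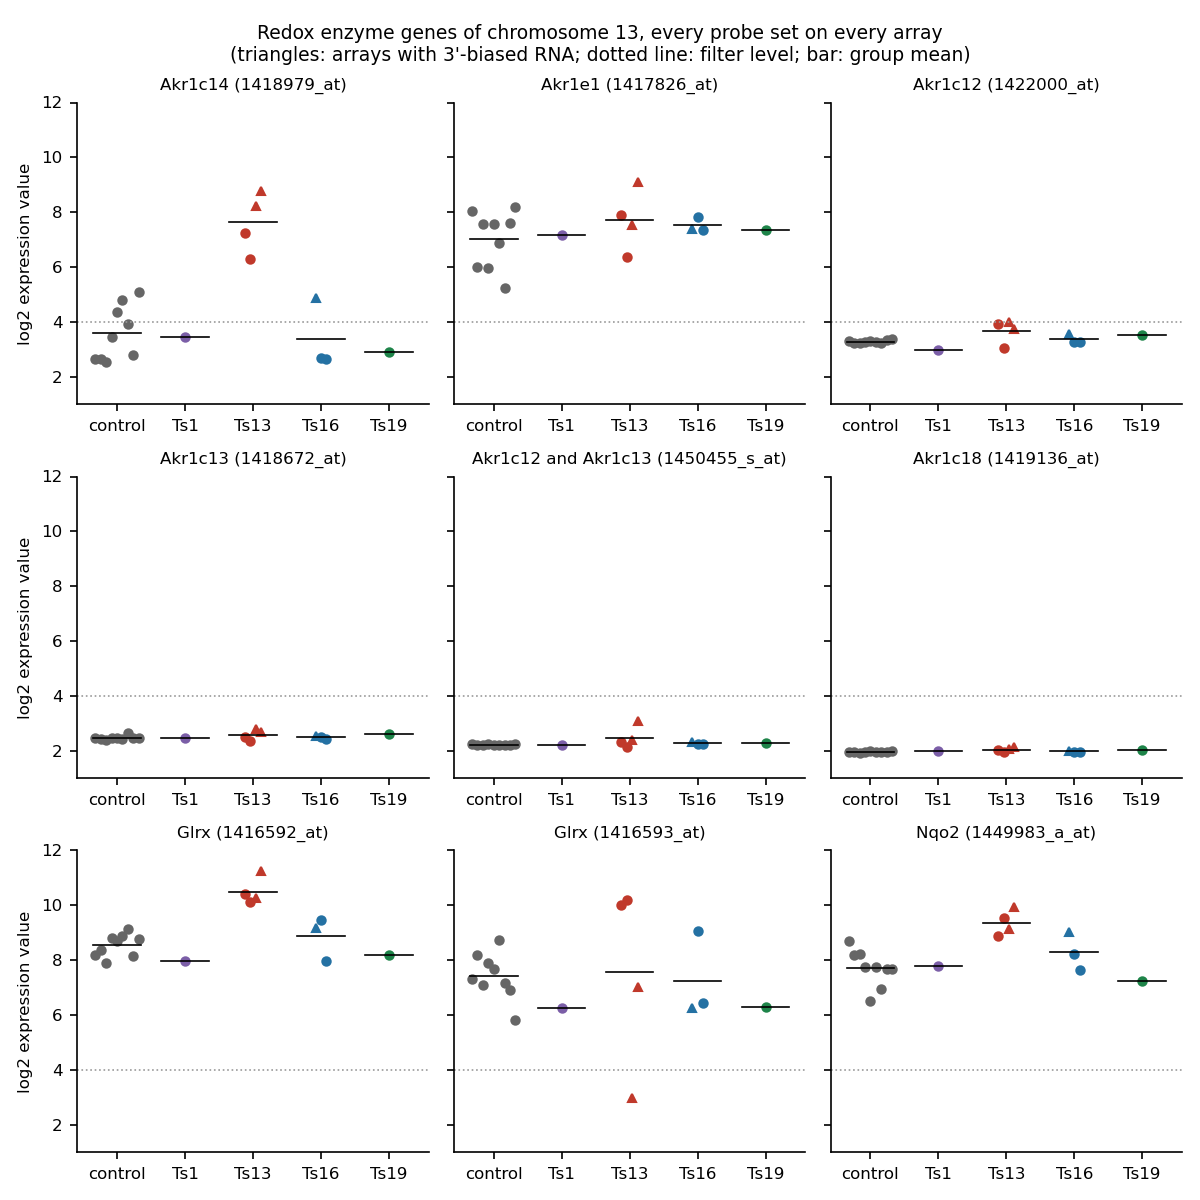
Log2 expression value (y axis) of each of the 9 member probe sets on all 18 arrays, by group (x axis), with group means as bars, 3′-biased arrays as triangles and the filter level of 4 as a dotted line. Ts13 stands apart from the controls for Akr1c14, for Nqo2 and for Glrx probe set 1416592_at, and the Akr1c12, Akr1c13 and Akr1c18 probe sets lie near the floor in nearly every culture.

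Akr1c14 encodes a hydroxysteroid dehydrogenase that works on androgens and progestins. Its probe set 1418979_at read 2.55 to 5.10 in the 9 controls (median 3.46), with 3 of 9 at 4 or above. In trisomy 13 it read 7.25, 6.30, 8.23 and 8.79 in replicates 1 to 4. Every trisomy 13 value was thus above every control, and the gap from the lowest of them to the highest control was 1.20. The mean difference was 4.05 ± 0.60 (SE from the limma fit), or 16.6-fold, on a control mean of 3.59 ± 0.99 (SD, n = 9) that lies below the filter level, where GCRMA values carry little information on the true level. The arrays with even RNA gave a difference of 3.18 and the 3′-biased ones 4.92. Replicate 4, the array with macrophage markers, had the highest value, whereas control replicate 8, which also had them, read 2.81. Without both of these arrays the difference was 3.57. The part of RNA quality and of macrophage RNA in it was not tested.

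Akr1c14 was low in most other cultures. The trisomy 16 cultures read 4.86, 2.68 and 2.66, trisomy 1 read 3.44 and trisomy 19 read 2.92. The order of the group means was trisomy 13 (7.64), control (3.59), trisomy 1 (3.44), trisomy 16 (3.40) and trisomy 19 (2.92). The last 4 differed by less than the SD among controls. Single controls reached the middle of the scale: replicates 5, 6 and 9 read 4.35, 4.82 and 5.10.

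The 4 other Akr1c probe sets did not leave the low range. Akr1c18 encodes the enzyme that inactivates progesterone in the ovary, and its probe set stayed between 1.94 and 2.15 on all 18 arrays. Akr1c13 (1418672_at) read 2.40 to 2.65 in controls and 2.52, 2.36, 2.81 and 2.70 in trisomy 13. Akr1c12 (1422000_at) read 3.25 to 3.37 in controls and 3.92, 3.07, 4.02 and 3.73 in trisomy 13. Here 3 of 4 trisomy 13 arrays lay above all controls and replicate 2 lay below them. The probe set shared by Akr1c12 and Akr1c13 read 2.20 to 2.25 in controls and 2.31, 2.14, 2.40 and 3.09 in trisomy 13, again with replicate 2 below and the 3′-biased replicate 4 highest. At such levels a low value does not show that a transcript is absent. Without replicate 2, Akr1c12 and Akr1c18 also had every trisomy 13 array above every control, which brings the count of such members from 3 to 5. For Akr1c18 the lowest of these arrays read 2.03, against a control maximum of 1.99, and trisomy 19 read 2.04. Both genes failed the filter. The share of all genes without replicate 2 is not given here, so nothing is read from the 5.

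Of the other Akr1c genes of the cluster, Akr1c6, Akr1c20 and Akr1c21 were on the array. Their highest values over all arrays were 2.00, 3.49 and 1.96, so none was tested. Among the Akr1c genes on the array, Akr1c14 was the one above the filter level in every trisomy 13 culture.

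Akr1e1, which encodes a reductase of anhydrofructose, lies at the other end of the cluster from Akr1c14 and was expressed in every culture. It read 5.25 to 8.21 in controls (median 7.57) and 7.89, 6.37, 7.54 and 9.12 in trisomy 13. These values overlap widely. The difference was 0.71 ± 0.55 (SE), 0.12 on the arrays with even RNA and 1.31 on the 3′-biased arrays. Trisomy 13 had the highest group mean (7.73), followed by trisomy 16 (7.52), trisomy 19 (7.37), trisomy 1 (7.19) and the controls (7.02), and all lay within 1 SD of the controls (1.04).

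Glrx was expressed in every culture and separated trisomy 13 from the rest on its first probe set, 1416592_at. Controls read 7.91 to 9.14 (median 8.71), and trisomy 13 replicates 1 to 4 read 10.41, 10.11, 10.26 and 11.24. The lowest trisomy 13 value was 0.96 above the highest control and 0.64 above the highest of all 14 other arrays. The difference was 1.95 ± 0.30 (SE), or 3.86-fold. It was 1.70 on the arrays with even RNA and 2.19 on the 3′-biased ones. Without trisomy 13 replicate 4 and control replicate 8, the 2 arrays with macrophage markers, it was 1.65.

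The second Glrx probe set, 1416593_at, followed the first on some arrays only. It read 5.83 to 8.75 in controls and 10.01, 10.21, 3.00 and 7.03 in trisomy 13. Replicates 1 and 2 were above every control, whereas the 3′-biased replicates 3 and 4 were far below them or among them. The mean difference was 0.13 over all 4 arrays, 2.68 on the arrays with even RNA and -2.42 on the 3′-biased arrays. The 3′-biased trisomy 16 replicate 1 read 6.25 on this probe set, against 9.19 on the first. Taking the mean of both probe sets lowered the Glrx difference to 1.04. The part of RNA quality in the disagreement between the probe sets was not tested.

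**Figure D2:**
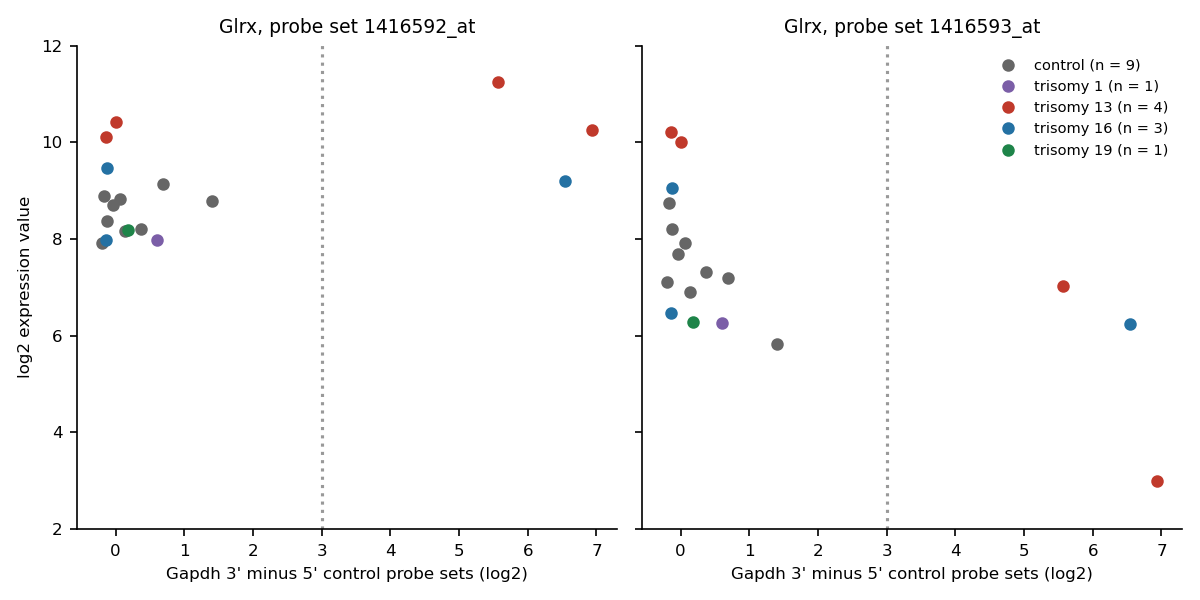
Log2 value of each Glrx probe set (y axis) against RNA quality, read as Gapdh 3′ minus 5′ (x axis, log2), 1 point per array, coloured by group, with a dotted line at the limit of 3. On 1416592_at all 4 trisomy 13 points are above 10, and on 1416593_at the 2 at the right fall to 3.00 and 7.03.

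Over the groups, Glrx 1416592_at had its highest mean in trisomy 13 (10.50), then trisomy 16 (8.88), the controls (8.56), trisomy 19 (8.19) and trisomy 1 (7.98). Trisomy 16 was spread widely, with 9.19, 9.47 and 7.98, so 2 of its 3 cultures were above all controls and 1 was near the lowest of them. Trisomy 1 and trisomy 19 lay inside the control range.

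Nqo2 was expressed in every culture. Its probe set 1449983_a_at read 6.53 to 8.72 in controls (median 7.75) and 8.89, 9.55, 9.13 and 9.93 in trisomy 13. The groups did not overlap, but the lowest trisomy 13 value was only 0.17 above the highest control and lay below trisomy 16 replicate 1, at 9.04. The difference was 1.65 ± 0.37 (SE), or 3.14-fold, with 1.497 on the arrays with even RNA and 1.80 on the 3′-biased arrays. Group means ran from 9.37 in trisomy 13 and 8.31 in trisomy 16 to 7.79 in trisomy 1, 7.72 in controls and 7.25 in trisomy 19, the last 4 within 1 SD of the controls (0.66) of each neighbour in that order.

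An extra copy alone, if expression followed dose, would give a log2 difference of 0.585, the log2 of 1.5. The median over the 277 tested genes of chromosome 13 was 0.64, against -0.003 over genes elsewhere. Glrx exceeded 0.585 by 1.36 and Nqo2 by 1.06, and Akr1e1, the nearest member below these, by 0.13. These 3 ranked 6, 13 and 123 by size among the 277 genes. Akr1c14 had the largest nominal difference of the 277, 3.47 above 0.585, but the size is uncertain because its control mean lies below the filter level. These values chose the list and are given as a description.

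**Figure D3:**
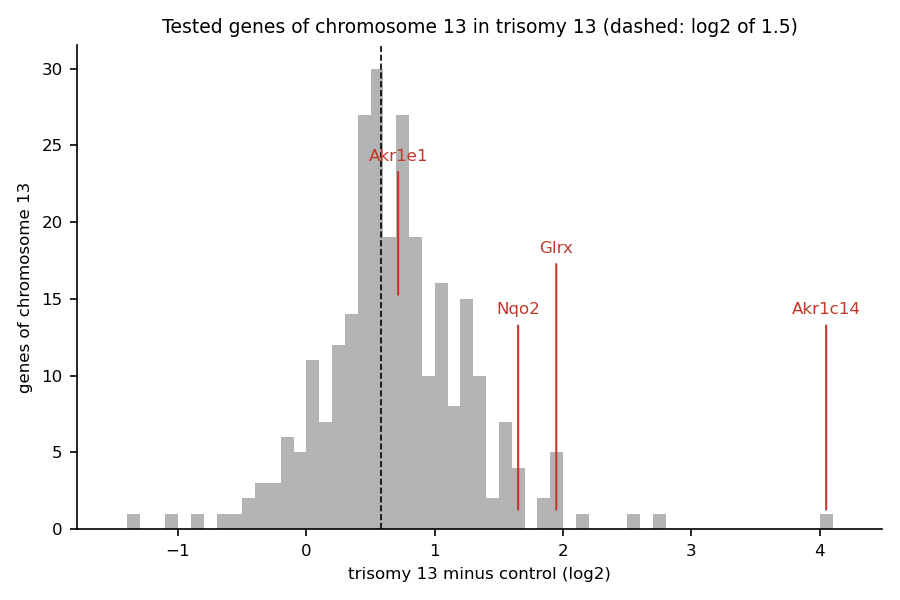
Number of tested chromosome 13 genes (y axis) by their trisomy 13 minus control difference (x axis, log2), with the 4 tested members marked and a dashed line at 0.585. Akr1e1 lies within the bulk of the 277 genes, Nqo2 and Glrx in the right tail, and Akr1c14 at the far end. The genes with the largest falls, Nop16 (-1.58), Nsa2 (-1.618), Smn1 (-2.028) and S1pr3 (-2.353), lie left of the plotted range and are not drawn.

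Cultures that share the first number of their title can be set beside each other. Trisomy 13 replicate 1 has control 4 as its partner, replicates 2 and 3 have controls 5 and 6, and replicate 4 has control 7. For Akr1c14 the differences within these numbers were 3.79, 1.72, 3.64 and 4.87 for replicates 1 to 4. For Glrx (1416592_at) they were 1.58, 1.31, 1.47 and 2.09. All were above 0 for both genes, and Glrx varied less.

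For Nqo2 the differences within first numbers were 1.13, 2.41, 1.99 and 2.97, all above 0. For Akr1e1 they were 1.91, -0.85, 0.31 and 3.87, which differ in sign. The second Glrx probe set gave 2.11 and 1.99 on the arrays with even RNA and -5.22 and -0.16 on the 3′-biased ones.

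The choice of controls therefore moved the sizes. The 4 controls that share a number with trisomy 13 had an Nqo2 mean of 7.25 (6.53 to 7.76), whereas the other 5 had 8.10 (7.67 to 8.72). The difference for Nqo2 was 2.12 from the former and 1.27 from the latter. Glrx went the other way, with control means of 8.89 and 8.29 and differences of 1.61 and 2.21. Akr1c14 had control means of 4.14 and 3.16, and differences of 3.51 and 4.49.

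**Figure D4:**
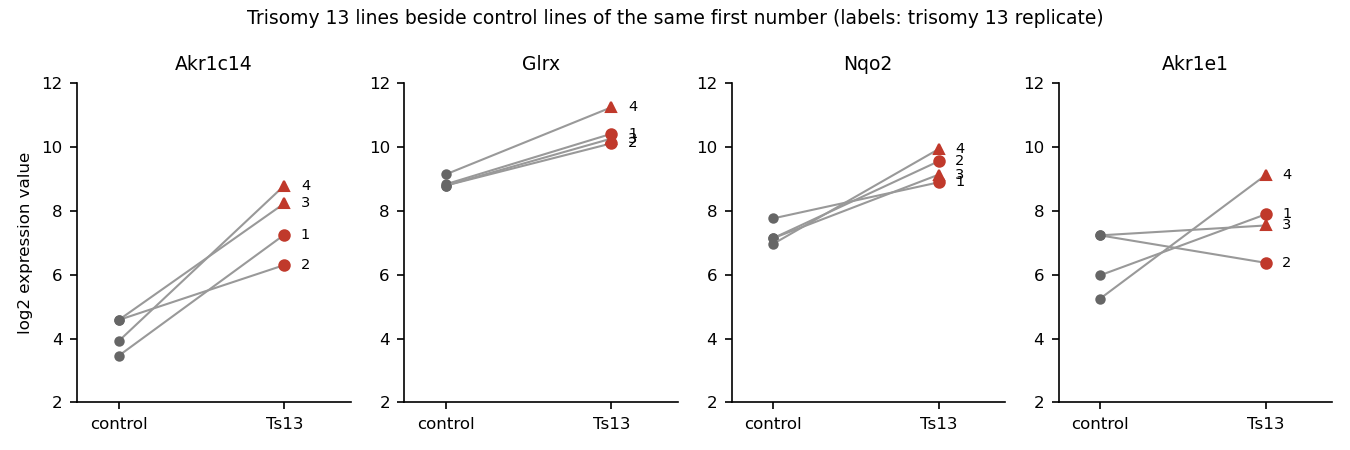
Log2 expression value (y axis) of Akr1c14, Glrx (1416592_at), Nqo2 and Akr1e1 in control and trisomy 13 cultures (x axis), with lines joining each trisomy 13 culture to the mean of the controls of its first number and labels giving the trisomy 13 replicate (triangles: 3′-biased arrays). Every line rises for the first 3 genes, and for Akr1e1 replicate 2 lies below its partners.

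The cultures with another extra chromosome have the normal dose of chromosome 13, and their values were not used to choose the members. These comparisons share the 9 controls with that of trisomy 13. Akr1e1, Glrx and Nqo2 would pass the filter without the trisomy 13 arrays and are tested here. Akr1c14 would not, and its values outside trisomy 13 are given with no test, as levels near background. In trisomy 16, limma with Benjamini-Hochberg adjustment over 7382 genes called 0 of the 3, beside 0.0406% of all genes (3 of 7382). At an unadjusted p under 0.05 it was 0 of 3, beside 6.99% of all genes.

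The Nqo2 difference in trisomy 16 was 0.58 ± 0.41 (SE, 95% interval -0.28 to 1.44, limma adjusted p = 0.7725), and 1 of 3 cultures was above all controls. Without the 3′-biased replicate 1, which is that culture, it was 0.21, and leaving out each array in turn gave 0.21 to 0.91. The Glrx difference was 0.32 ± 0.34 (-0.39 to 1.03, limma adjusted p = 0.827). It was 0.17 without replicate 1 and 0.03 to 0.77 with each array left out. For Akr1e1 it was 0.50 ± 0.61 (-0.79 to 1.80, limma adjusted p = 0.8485), and 0.57 without replicate 1. The intervals of all 3 include a change of 1.5-fold upwards. The Akr1c14 means differed by -0.19, and by -0.92 without replicate 1.

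Trisomy 16 and control replicates 1 to 3 deviated together by replicate number over all genes, so each trisomy 16 culture can be set beside the control of its own number. Some cultures that share no number deviated together to a similar degree, so the pairing is not certain. For Glrx (1416592_at) the differences were 0.98, 1.08 and 0.06 for replicates 1 to 3. For Nqo2 they were 0.32, 0.02 and -0.60, and for Akr1e1 -0.68, 1.81 and -0.24. Glrx was thus above its partner in all 3 pairs on 1416592_at, though by little in the third. Its second probe set, 1416593_at, gave -1.07, 0.85 and -0.65, which differ in sign. Nqo2 and Akr1e1 also differed in sign. The means of the controls that share a first number gave 1.13, 1.08 and -0.08 for Glrx (1416592_at) and 0.56, 0.02 and -0.84 for Nqo2.

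Trisomy 1 and trisomy 19 have 1 culture each, so their values describe these cultures and cannot speak for the trisomy. The fit assumes that they vary like the other groups. In trisomy 1 the differences were 0.18 for Akr1e1, -0.57 for Glrx and 0.07 for Nqo2, and in trisomy 19 they were 0.35, -0.37 and -0.47. limma called 0 of these 3 members in either culture, beside 0.0406% of all genes in trisomy 1 and 0.0% in trisomy 19, and at an unadjusted p under 0.05 it was 0 of 3 beside 6.29% and 1.96%. The intervals are wide: that of Glrx ran from -1.70 to 0.55 in trisomy 1. Akr1c14 differed from the control mean by -0.15 in trisomy 1 and by -0.67 in trisomy 19.

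Over the 5 cultures of trisomies 1, 16 and 19 together, limma called 0 of the 3 members and 0.0% of all genes, and at an unadjusted p under 0.05 it was 0 of 3 beside 3.58% of all genes. The mean Glrx difference was 0.00 (95% interval -0.59 to 0.60), that of Nqo2 was 0.27 (-0.45 to 0.99) and that of Akr1e1 was 0.41 (-0.68 to 1.49), with a limma adjusted p of 0.9997 for each. Without the 3′-biased array they were -0.15, 0.006 and 0.42.

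Of the genes beside the 3 places, also at 3 copies in trisomy 13, 29 non-members were tested, up to 5 on each side of a place. In trisomy 13 limma called 4 of them higher and 0 lower. A positive difference was found for 28 of 29, as for most tested genes of chromosome 13, so nothing is read from the 28. The median of the 29 was 0.73. Over all tested genes of chromosome 13 it called 14.4% higher (40 of 277), with a median of 0.64, and over all genes 1.1%, so the neighbours were called about as often as the chromosome as a whole. The 4 were Klf6, a zinc-finger transcription factor (0.95, limma adjusted p = 0.02121), Pfkp, the platelet-type phosphofructokinase of glycolysis (1.63, 0.005781), the centrosome gene Cetn3 (0.85, 0.04307) and the tubulin gene Tubb2a (0.80, 0.005781). Without the 3′-biased arrays Pfkp alone passed (1.54, limma adjusted p = 0.0463), and Klf6, Cetn3 and Tubb2a were at 0.73, 0.69 and 0.91. The count was also 1 without the 2 arrays with macrophage markers, 2 without trisomy 13 replicate 3 or 4, 8 without replicate 1 or 2, and 0 with a replicate block.

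Beside the Akr1 cluster, the nearest tested gene was Net1, a guanine nucleotide exchange factor gene 130.8 kb before it, at -0.02. Next came Asb13 (1.54) and Tasor2 (1.04), which did not pass the test. Without the 3′-biased arrays these 3 were at 1.04, 0.68 and 0.71. The 9 neighbours of the cluster ranged from -0.02 to 1.63. Beside Glrx the range was 0.23 to 1.91, and the elongation factor gene Ell2, 67.5 kb away, was at 1.06 (limma adjusted p = 0.1367), and at 0.50 without the 3′-biased arrays. Beside Nqo2 it was 0.06 to 2.76. Here Bphl, 49.1 kb away, was at 0.65, and at 0.47 without those arrays. The protease inhibitor gene Serpinb9b, named after its value was seen, was the highest at 2.76 (limma adjusted p = 0.05526), with 2.72 without those arrays.

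Serpinb6a, another protease inhibitor gene of the serpin family, has an annotated span that overlaps that of Nqo2, which puts it outside the rule for neighbours. It was named after its values were seen. It read 13.08 to 13.57 in controls and 14.17, 14.72, 13.94 and 14.01 in trisomy 13, with no overlap. The difference was 0.91 ± 0.13 (SE, limma adjusted p = 0.002648), and 1.14 without the 3′-biased arrays (limma adjusted p = 0.01155).

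**Figure D5:**
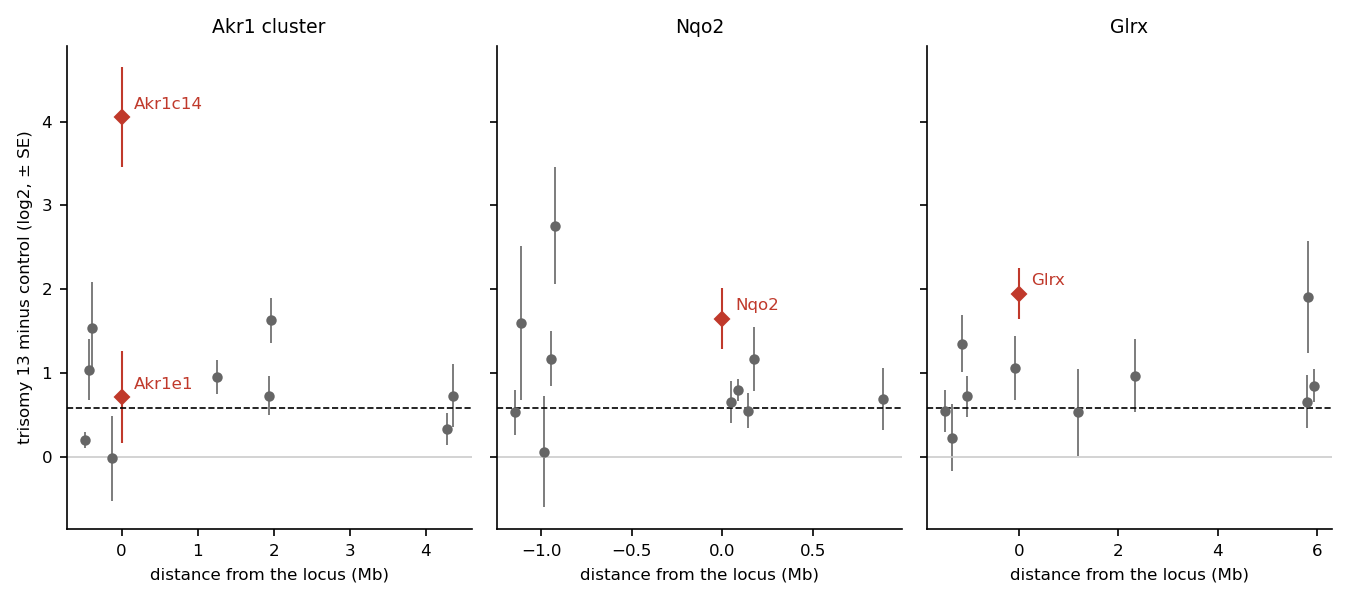
Trisomy 13 minus control difference (y axis, log2, bars are SE) of the members and of up to 5 tested neighbours on each side, by distance from the locus (x axis, Mb), in a panel for each of the 3 loci. A dashed line marks 0.585. Of the 29 neighbours 28 lie above 0, as do most tested genes of chromosome 13, and Akr1c14 is above every neighbour of its cluster.

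Likeness to a member was measured as the root mean square difference over the 18 arrays, after each gene was set to 0 at its own control mean. The trisomy 13 arrays are among the 18, so likeness depends on the rise that chose the members. It is given as a description, and nothing is read from where the like genes lie. The genes most like Glrx were Gpr137b (0.42), Pfkp (0.53) and Caml (0.54), and those most like Nqo2 were Caml (0.42), 2210016F16Rik (0.43) and Nln (0.45). All 5 lie on chromosome 13. Those most like Akr1c14 were farther away and lie elsewhere: Itgbl1 on chromosome 14 (1.07), S100a1 on chromosome 3 (1.11) and Spint2 on chromosome 7 (1.15). Among members, Glrx and Nqo2 were 0.74 apart, Akr1c14 and Glrx 1.25, and Akr1c14 and Nqo2 1.61. Akr1c14 and Akr1e1, of the same cluster, were 1.94 apart.

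Other genes of the same pathways were taken from lists written with earlier results of these data known, and 72 of them were tested. In trisomy 13 limma called 1 higher and 2 lower, beside 1.1% and 0.664% of all genes. The median over the 72 was 0.11, against 0.013 over all genes, and 41 were above the control mean. Gsta4, the glutathione transferase that clears hydroxynonenal, rose by 1.42 ± 0.31 (SE, limma adjusted p = 0.0309). It read 8.00 to 9.55 in controls and 10.02 to 10.49 in trisomy 13, with no overlap. The cultures with another trisomy also lay above all controls, at 9.59 to 11.10 in trisomy 16, 9.67 in trisomy 1 and 9.77 in trisomy 19. Gpx7, a peroxidase of the endoplasmic reticulum, fell by 0.95 ± 0.18 (limma adjusted p = 0.01505), from 10.39 to 11.21 in controls to between 9.57 and 10.36. Ptgis, the prostacyclin synthase, fell by 1.34 ± 0.30 (limma adjusted p = 0.0363), from 8.75 to 10.26 in controls to between 7.65 and 8.56. All 3 calls were lost without the 3′-biased arrays (adjusted p from 0.09333 to 0.2124), without trisomy 13 replicate 3, without replicate 4, without the 2 arrays with macrophage markers and with the first number as a block. The differences on the arrays with even RNA were 1.61, -0.87 and -1.49. Without trisomy 13 replicate 2, 8 list genes passed downwards.

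By family, the relatives of the members gave the following, where 21.9% of all genes had an unadjusted p under 0.05 in trisomy 13. Of 4 aldo-keto reductases on other chromosomes 0 passed and 0 had an unadjusted p under 0.05, with a median of 0.10. Akr1a1, which reduces glucuronate, was at 0.14, Akr1b10 at 0.50 and Akr7a5 at 0.06. Without the 3′-biased arrays they were at 0.00, -0.32 and 0.20. Of 12 glutaredoxins, thioredoxins and peroxiredoxins 0 passed and 1 had an unadjusted p under 0.05, with a median of 0.11. This was the thioredoxin relative Nxn, at -0.75 (limma adjusted p = 0.2011), and without the 3′-biased arrays it was at 0.06. Txnrd3, a thioredoxin reductase, was at 0.94 and Srxn1, the sulfiredoxin that restores peroxiredoxins, at -0.90. Without those arrays they were at 0.16 and 0.55.

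Of 9 quinone and carbonyl reductases 0 passed and 3 had an unadjusted p under 0.05, beside the same 21.9% of all genes, with a median of 0.08. Nqo1, the relative of Nqo2 that uses NADPH and a well-known Nrf2 target, read 4.95 to 8.09 in controls and 6.50 to 8.83 in trisomy 13. Its difference was 1.42 ± 0.65 (SE, limma adjusted p = 0.2124), and 1.31 without the 3′-biased arrays. In trisomy 16 it was 2.23 (limma adjusted p = 0.394), and 1.57 without the 3′-biased array. Cryzl1 was at 0.57 and Cbr4 at 0.58, and without the 3′-biased arrays they were at 0.35 and 0.16.

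Of 15 genes for Nrf2 and its partners, NADPH supply and superoxide removal 0 passed and 2 had an unadjusted p under 0.05 (21.9% of all genes), with a median of 0.22. Pgd, a dehydrogenase of the pentose phosphate pathway that makes NADPH, was at 0.51 with and without the 3′-biased arrays (limma adjusted p = 0.1065 with them). Its 4 trisomy 13 values, 13.33 to 13.37, were above all controls (12.27 to 13.26). The small Maf genes Mafk and Maff were at 0.78 and 0.96, and at 0.46 and 0.40 without those arrays.

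Of the 17 glutathione genes, Gsta4 and Gpx7 among them, 9 had an unadjusted p under 0.05 (21.9% of all genes). Their median was -0.35, and 0.13 without the 3′-biased arrays. Gpx3, the secreted peroxidase, was at -3.24 (limma adjusted p = 0.0737), Gstm2, a cytosolic transferase, at -2.05 (0.1059) and Mgst1, a microsomal transferase, at 1.28 (0.07745). On the arrays with even RNA they were at -3.54, -0.45 and 1.26.

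Of the 9 genes of steroid and prostaglandin metabolism, Ptgis among them, 5 had an unadjusted p under 0.05 (21.9% of all genes), and the median was -0.04. Hsd17b11, a hydroxysteroid dehydrogenase, was at 0.72 and 0.41 without the 3′-biased arrays. Ptges, a prostaglandin synthase, was at -1.41 and Ptgs2, the inducible cyclooxygenase, at 1.14 (limma adjusted p = 0.1544 and 0.2138). Without those arrays they were at -1.34 and 1.22.

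Other oxidoreductase genes of chromosome 13 form the closest comparison by dose. Of 6 tested, 0 passed, beside 14.4% of all tested genes of chromosome 13 called higher (40 of 277). An unadjusted p under 0.05 was found for 4 of the 6. Over all genes the share was 21.9%, but most of those genes lie elsewhere, at the normal dose. The share on chromosome 13 alone is not given here, so nothing is read from the 4. All 6 genes had a positive difference, as did most tested genes of the chromosome, and the median of the 6 was 0.65, near that of the chromosome. They include Gpx8, a peroxidase of the endoplasmic reticulum (0.81, limma adjusted p = 0.09154), the complex I subunit Ndufs4 (0.58, 0.1072) and the mitochondrial transhydrogenase Nnt (0.71, 0.1325). With the even-RNA arrays alone they were at 0.71, 0.52 and 0.52.

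In trisomy 16, which shares the controls, limma called 0 of the 72 list genes, beside 0.0406% of all genes, and 7 had an unadjusted p under 0.05, beside 6.99%. Gsta4 was at 1.45 there (limma adjusted p = 0.1398), and at 1.03 without the 3′-biased array. In bulk cultures fewer cells of a type and less RNA per cell cannot be told apart, which holds for every level given here.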

How the data were processed

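The deposited table holds log2 expression values for 22690 probe sets on 18 arrays, made by the authors with GCRMA and affy, per the submitters' processing notes. The sources used here give no versions or settings for them, and do not say whether 1 run covered all arrays. Probe sets with 1 listed gene were used (20393). Another 691 list several genes, 1606 list none and 64 are controls. For tests each gene was read by its probe set with the highest mean, and 7382 of 12394 genes had a mean of at least 4. Gene positions and promoter windows came from RefSeq, GRCm38.p6.

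limma 3.58.1 in R 4.3.3 (lmFit, eBayes with trend) was fitted to all 18 arrays in 5 groups, with 13 residual degrees of freedom. Benjamini-Hochberg adjustment ran over 7382 genes, two-sided, at 0.05. The fit was tested on simulated data. The members and lists were chosen with earlier results of these data known. Named genes were all members, list genes called in trisomy 13 or 16 with up to 3 more by p, neighbours called with up to 3 more by distance, and the 3 genes most like each of Akr1c14, Glrx and Nqo2. Serpinb6a and Serpinb9b were named after their values were seen. The limit of 3 on the Gapdh difference followed inspection of those probe sets. Trisomy 16 and control replicates 1 to 3 deviated together by replicate number over all genes (correlations 0.523, 0.413 and 0.577). Trisomy 13 replicates did not (-0.255 to -0.031), but there the control of the same replicate number has another first number. With controls of the same first number, trisomy 13 replicate 1 gave 0.364, and replicate 2 gave 0.162 and -0.013. Replicate 3 gave -0.025 and 0.046, and replicate 4 gave -0.097. Each trisomy 16 replicate had its highest correlation with the control of its own number. Pairs that share neither number also reached 0.417 (trisomy 16 replicate 3 with control 5) and 0.47 (trisomy 13 replicate 2 with control 3). Alternatives were other filters, probe set summaries, scalings and replicate blocks, no trend, and leaving out arrays. Figures were drawn with matplotlib 3.10.9. Identity of the member proteins was not analysed here.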

Additional observations from a re-analysis of the deposited data

Results flagged for a closer look

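On the Akr1c13 probe set 1418672_at, control replicate 7 stood apart from the other controls. It read 2.65 and the other 8 read 2.40 to 2.49, so that its gap to the nearest was 0.63 of the range of the 9. All of these lie below the filter level. Dixon's test was applied to 18 sets of arrays, and chance alone sets about 1 in 20 apart.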

How the results depend on the processing

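The number of members with every trisomy 13 array above every control was 3 and stayed at 2 to 4 under 23 alternatives. It was 5 without trisomy 13 replicate 2, and leaving out each array gave 3 to 5. The share of all genes under these alternatives is not given here, so nothing is read from these counts. The difference of Glrx fell to 1.04 with the mean of its probe sets. That of Nqo2 was 1.14 with the replicate number as a replicate block and 2.12 with the first number as a block. The Akr1c14 difference ranged from 3.18 to 4.81 under the alternatives that keep the gene, and a filter at a mean of 5 leaves it out. The gene was chosen on this contrast, so the range is a description and no support. In trisomy 16 and in the 5 cultures together 0 members were called under the 30 and 29 alternatives run. The main fit called 0.0406% and 0.0% of all genes there, so these counts say little about the members. Single cultures of trisomies 1 and 19 allow no reading of stability. Signs of these uncalled differences turned as follows. A block by replicate number sets cultures outside trisomy 16 beside controls of other first numbers, so its values for those are not read further. With the replicate number as a block, Akr1c14 was at 0.86 in trisomy 16, 0.41 in trisomy 1 and 0.58 in the 5 cultures, Akr1e1 at -0.085 in trisomy 1, and Nqo2 at -0.68 in trisomy 1 and -0.33 in the 5. With the first number as a block, Akr1c14 was at 0.78 in trisomy 16, 0.11 in trisomy 19 and 0.16 in the 5, Akr1e1 at -1.01 in trisomy 1, -0.23 in trisomy 19 and -0.07 in the 5, Glrx at 0.014 in trisomy 19, and Nqo2 at -0.086 in trisomy 16 and -0.11 in the 5. The paired arrays of trisomy 16 alone, added after the data were seen, gave 0.78 for Akr1c14 and -0.086 for Nqo2. Glrx in the 5 cultures was at -0.28 with the mean of its probe sets, -0.15 without the 3′-biased arrays and -0.045 without the arrays with macrophage markers, an alternative also added after the data were seen. Leaving out each array gave -0.92 to 0.18 for Akr1c14 in trisomy 16 and -0.28 to 0.035 in trisomy 1, -0.045 to 0.32 for Akr1e1 and -0.08 to 0.19 for Nqo2 in trisomy 1, and -0.22 to 0.15 for Glrx in the 5.

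Pathway genes called higher in trisomy 13 (1) were 2 with the mean of probe sets, 3 with each array centred on its median, 0 with a first-number block, 0 without the 3′-biased or the macrophage-marker arrays, and 0 to 2 with each array left out. Those called lower (2) were 0 with median centring, 1 with quantile normalization, 0 with either replicate block, 0 without the 3′-biased or the macrophage-marker arrays, and 0 to 8 with each array left out. Neighbours called higher (4) were 7 with median centring, 0 with either block, 1 without the 3′-biased or the macrophage-marker arrays, and 2 to 8 with each array left out. Median centring moved the median of all genes in trisomy 13 from 0.013 to 0.325 and quantile normalization to 0.10. In trisomy 16, 0 pathway genes were called under all 30 alternatives, where the main fit called 0.0406% of all genes, so little is read from this. The causes were not tested. Signal limits Akr1c12, Akr1c13, Akr1c18 and, outside trisomy 13, Akr1c14, which lie near background. Glrx is the one member read by more than 1 probe set of its own.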
